A study of Rattus norvegicus with 218 samples.

Results

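Single neurons of the rat DMV (dorsal motor nucleus of the vagus) were divided into those in which the transcript of choline acetyltransferase (Chat) was measured and those in which it was not. Of 115 single neurons, 98 had a threshold cycle (Ct) in at least 42 of the 168 assays, and these were kept. They were selected on the Chat assay itself: 68 neurons had a Chat Ct and 30 had none. A Ct is the amplification cycle at which a transcript becomes measurable, so a lower Ct means more transcript. An assay with no Ct was below the limit of detection in that neuron, which does not show that the transcript was absent.

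Neurons stained for the neuronal protein NeuN had been captured by laser from the left and right DMV of adult male Sprague Dawley rats, and each was measured with 168 RT-qPCR assays for 165 genes. The animals were naive, had a sham operation, or had remote ischemic preconditioning (RIPC). The sham operation consisted of ketamine/xylazine anaesthesia and exposure of the femoral vessels in both legs. In RIPC the vessels were also tied off and released, and the brainstem was collected 2.5 h after reperfusion. The animal was taken as the replicate, with the animal number of the labels as the replicate number. The kept neurons came from 9 of the 10 animals, in very unequal numbers: naive replicate 3 gave 54 of the 98. A neuron captured from a thin section is a partial cell, and each was measured once except for 5 that were run again.

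The DMV holds preganglionic motor neurons of the vagus nerve, which project to ganglia of organs such as the heart, stomach and gut. Most of these neurons use acetylcholine. Choline acetyltransferase makes this transmitter, and acetylcholinesterase (Ache) breaks it down after release. The nucleus also holds neurons that make the inhibitory transmitter GABA with the glutamate decarboxylases Gad1 and Gad2. Vagal motor neurons receive strong GABA input and respond to it through GABA-A receptors, pentameric chloride channels built from subunits such as those of the Gabra, Gabrb, Gabre and Gabrq genes.

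Chat was measured at a clear level in most of the neurons that had it. Its Ct ranged from 9.87 to 24.3 with a median of 13.6, and the middle part of the distribution, from the lower to the upper quartile, spanned 12.2 to 14.9. The latest values were 24.3 and 20.01, both in sham replicate 4, followed by 18.7 in RIPC replicate 2. The median Chat Ct was 15.2 in naive replicate 2 and 13.4 in naive replicate 3. It was 13.4, 14.2, 12.6 and 20.01 in sham replicates 1 to 4, the third of these from 1 neuron. It was 14.7, 11.9 and 16.9 in RIPC replicates 1 to 3. The animals overlapped, apart from the late values of sham replicate 4. These values chose the 68 neurons and are given as a description.

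Ache, which marks cholinergic neurons less strictly, had a Ct in 65 of the 68 neurons with Chat and in 24 of the 30 without. The general neuronal transcripts Camk2a (a calcium/calmodulin-dependent kinase) and Eno2 (neuron-specific enolase) were measured in 68 and 67 neurons with Chat. They were measured in 27 and 25 of the neurons without Chat. Map2, a further neuronal transcript, was measured in 61 of 68 neurons with Chat (89.7%) and in 19 of 30 without (63.3%). Both groups thus carried neuronal transcripts, each of these at a lower share in the neurons without Chat. Gfap, the filament protein of astrocytes, had a Ct in 56 of 68 neurons with Chat and in 23 of 30 without. Its level relative to the centring genes described below ran from -4.39 to 3.29 cycles in the first group and from -3.32 to 3.07 in the second. The part of astrocyte material in the results was not tested.

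**Figure D1:**
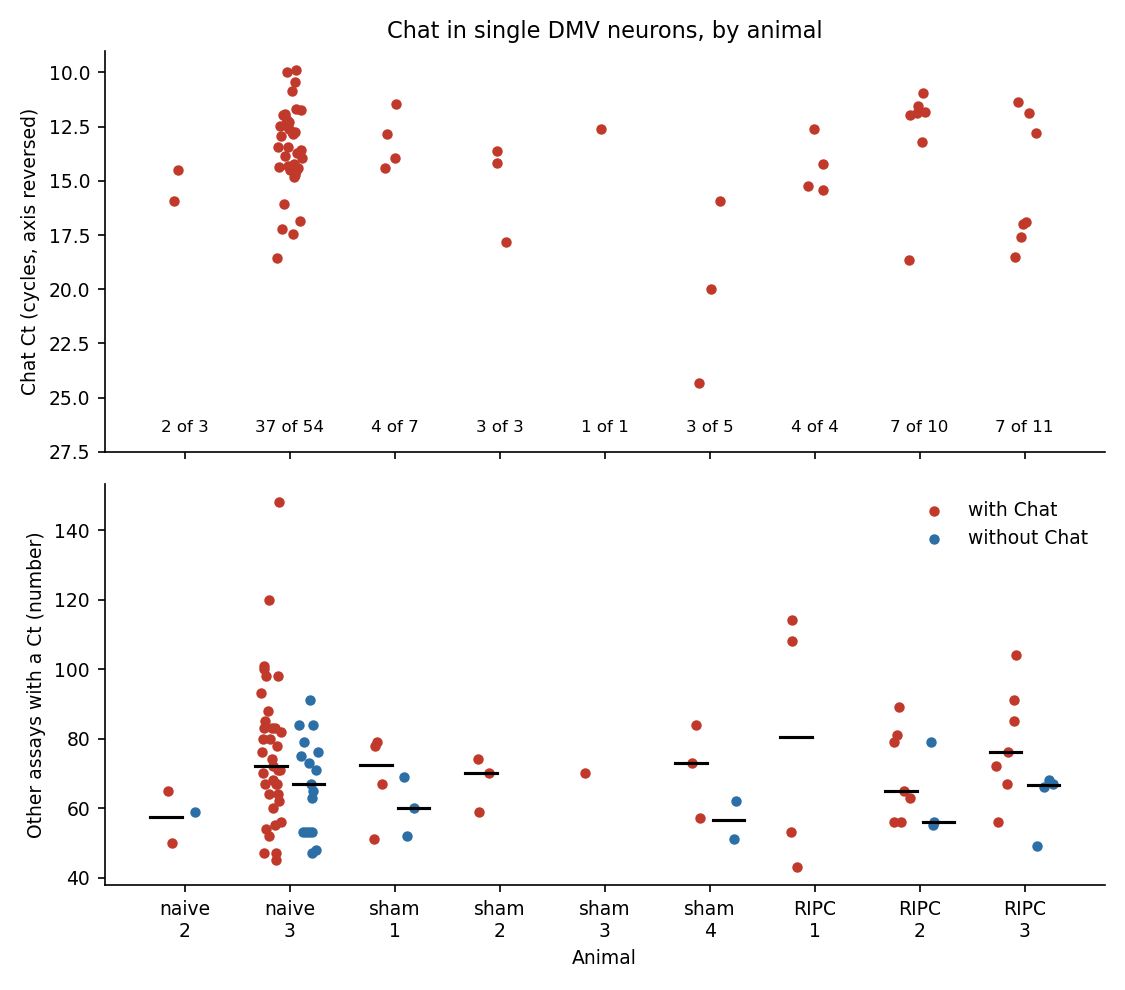
Upper panel: Chat Ct in cycles (axis reversed, so that more transcript lies higher) for each single neuron with Chat, by animal, with the number of neurons with Chat out of all kept. Lower panel: number of other assays with a Ct in each neuron with Chat (red) and without (blue), with a black bar at the median where there were several neurons; in naive replicate 3 the medians were 72 and 67.

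Neurons with Chat gave a Ct in more of the other assays than neurons without. The number ranged from 43 to 148 with a median of 71.5 in the first group and from 47 to 91 with a median of 64 in the second. Within animals the weighted mean difference was 9.70 assays, and it was above 0 in 5 of the 6 animals that had neurons of both kinds (exact sign-flip test over animals, two-sided, p = 0.0625, where the smallest p possible was 0.0312). Of the 20 neurons with 43 to 55 other assays measured, 50% had Chat, and of the 14 with 86 or more, 92.9% had it. The tests of gene shares and levels below hold the number of other detected assays and the animal fixed, whereas counts over neurons, correlations and the shares of Chat by treatment and side are not adjusted for depth. The limit of 42 assays also lies on this scale. The neurons nearest to it on the kept side had 44, 46 and 47 assays with a Ct, and Chat was measured in the first and the second of them. Those nearest on the other side had 41, 40 and 38, and Chat was measured in the first.

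The Chat assay was repeated in the 5 neurons that were run again. In 3 neurons of naive replicate 3, Chat had a Ct in both runs: 13.4 and 12.5, 16.9 and 12.1, and 13.6 and 14.1. In 2 neurons of RIPC replicate 2, the first run had no Chat Ct, and the second run gave 11.9 and 18.7. These neurons had 23 and 16 assays with a Ct in both runs, out of 53 and 36 in the first run, whereas the naive neurons had 54 to 74. With so few assays in common, the runs of each RIPC neuron may not be of the same sample, and nothing is drawn from them about a missing Chat value. Both were counted as having Chat. With all 5 neurons left out, an alternative chosen after seeing the data, 17 genes were called by share in the comparison that follows, including all 15 called with them.

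The share of neurons in which each other gene had a Ct was compared between the groups for the 116 genes measured in 10% to 90% of the neurons. For each of 6 animals with neurons of both kinds, the share without Chat was subtracted from the share with Chat, adjusted for the number of other detected assays. The animals' differences were averaged with weights set by their numbers of neurons and tested with limma. Of the 116 genes, 15 passed at an adjusted p under 0.05, which is 12.9% of those tested. Of these, 10 were measured more often in neurons with Chat (8.62% of genes tested) and 5 less often (4.31%). Without the depth adjustment, 19 genes were called more often and 2 less often. Of the 5, Gad1 and Gad2 then stayed called, and Kcna1, Chrm5 and Sstr4 were at -19.3, -18.6 and -19.2 points and did not pass (limma adjusted p of 0.17 to 0.22). Over all 116 genes the median difference was -1.52 percentage points, and 51 differences were above 0. Naive replicate 3 held 58.6% of the weight, and without it 5 genes passed, of which 1 was among the 15. Without sham replicate 4, 9 genes passed. The title of 1 neuron labelled RIPC replicate 3 began like those of another animal, and without this neuron 11 genes passed, all among the 15. Hcn3, Kcna1 and Chrm5 (limma adjusted p = 0.058 each) and Rgs2 (0.073) then did not pass. With animals weighted equally, 0 passed and 20 had an unadjusted p under 0.05. With depth taken as the median Ct of the 35 most often detected genes, 2 of the 15 passed, of which 1 was Gad2.

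**Figure D2:**
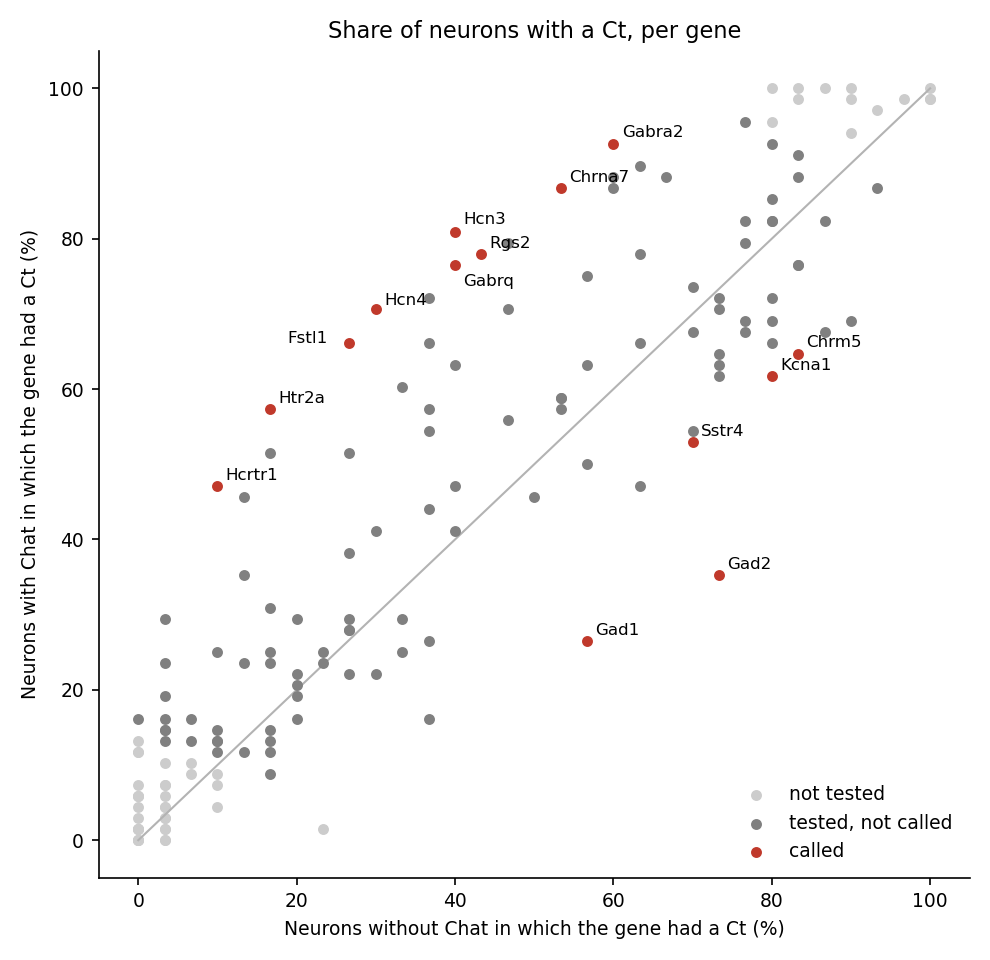
Each point is a gene, drawn for the genes reported here, with the percentage of the 30 neurons without Chat (x axis) and of the 68 neurons with Chat (y axis) in which it had a Ct; the grey line marks equal shares. Called genes (red) passed limma at an adjusted p under 0.05 after adjustment for animal and depth: 9 drawn lie above the line, such as Htr2a at 57.4% against 16.7%, and 5 below it, such as Gad2 at 35.3% against 73.3%.

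The enzymes of GABA synthesis were measured less often in neurons with Chat, and both genes of this list were among the 5 (4.31% of all genes tested). Gad2 had a Ct in 24 of 68 neurons with Chat (35.3%) and in 22 of 30 without (73.3%). In naive replicate 3 the counts were 7 of 37 and 13 of 17, with Wilson 95% intervals of 9.48% to 34.2% and 52.7% to 90.4% that cover counting error only. In sham replicate 1 Gad2 was measured in 0 of 4 neurons with Chat and 2 of 3 without. RIPC replicate 2 gave 3 of 7 and 2 of 3, and RIPC replicate 3 gave 4 of 7 and 3 of 4. The remaining animals went the other way or were level, with 2 of 3 and 1 of 2 in sham replicate 4 and 2 of 2 and 1 of 1 in naive replicate 2. The adjusted difference was -50.3 ± 9.40 percentage points (SE, 6 animals; limma adjusted p = 0.00067), lower with Chat in 4 of 6 animals, and the exact sign-flip test over animals gave p = 0.125. Without naive replicate 3 it was -29.8 points (limma adjusted p = 0.26).

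Gad1 was measured in 18 of 68 neurons with Chat (26.5%) and in 17 of 30 without (56.7%). Naive replicate 3 gave 5 of 37 and 11 of 17, whereas RIPC replicate 3 gave 6 of 7 and 3 of 4, and sham replicate 4 gave 2 of 3 and 0 of 2. The adjusted difference was -39.7 ± 10.1 points (limma adjusted p = 0.0125; lower with Chat in 5 of 6 animals; exact sign-flip p = 0.219), and RIPC replicate 3 counted as lower only after the depth adjustment. Before it the share was lower with Chat in 4 of 6 animals. The value rested mainly on naive replicate 3, since without that animal it was -11.0 points (limma adjusted p = 0.70).

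Even so, both transmitter systems were measured together in many neurons. Gad1 or Gad2 had a Ct in 27 of the 68 neurons with Chat and in 24 of the 30 without. The overlap differed widely between animals. In naive replicate 3, 8 of 37 neurons with Chat had Gad1 or Gad2, and in sham replicate 1 it was 0 of 4. In the other 7 animals together the transcripts were common: 2 of 2 in naive replicate 2, then 2 of 3, 1 of 1 and 2 of 3 in sham replicates 2 to 4, and 3 of 4, 3 of 7 and 6 of 7 in RIPC replicates 1 to 3. The median Chat Ct was 13.8 in the 27 neurons with Gad1 or Gad2 and 13.4 in the 41 without, over ranges that overlapped. Relative to the centring genes described below, the median Chat level was -0.08 cycles with Gad and 0.73 without, a description that was not tested. Neurons with Chat and Gad also had more other assays measured, with a median of 76 against 70. Only 4 of the 30 neurons without Chat had neither Gad1 nor Gad2 nor Th, against 14 of the 68 with Chat.

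**Figure D3:**
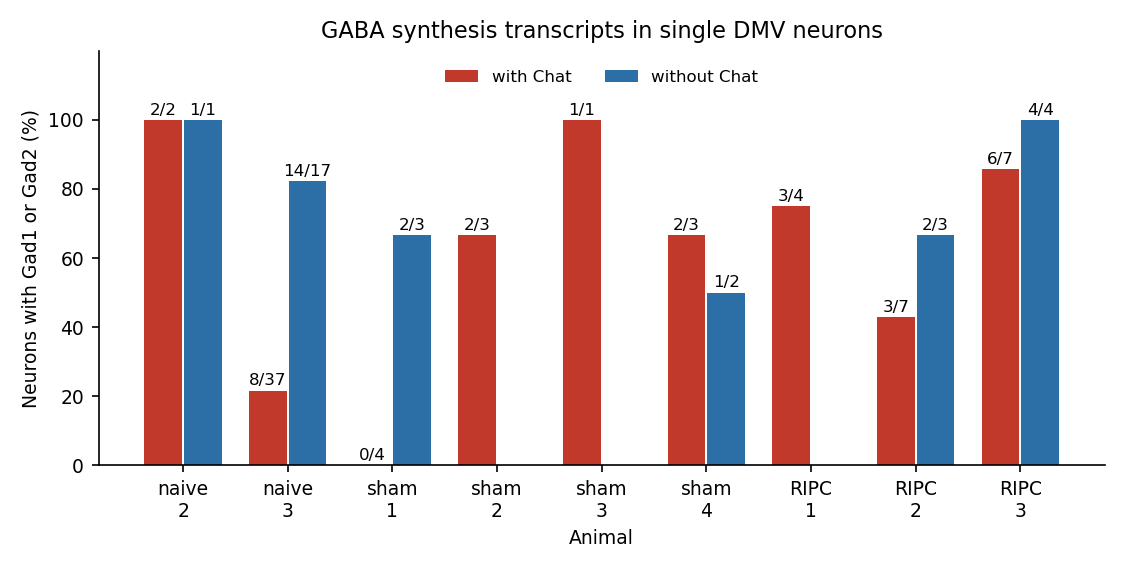
Percentage of neurons with a Ct for Gad1 or Gad2 in each animal, for neurons with Chat (red) and without (blue), with the counts above the bars; sham replicates 2 and 3 and RIPC replicate 1 had no neurons without Chat. In naive replicate 3 the bars stand at 21.6% (8 of 37) and 82.4% (14 of 17), while of the other 5 animals with both kinds of neuron, naive replicate 2 (100% in both) and RIPC replicate 3 (85.7% and 100%) have high bars in both groups, from few neurons.

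Of the 5 GABA-A receptor subunits described here, 2 passed the test, both measured more often with Chat, beside 8.62% of all genes tested. The 5 differences were all above 0 with a median of 28.0 points. Gabra2, an alpha subunit, was measured in 63 of 68 neurons with Chat (92.6%) and 18 of 30 without (60%). The counts were 37 of 37 and 12 of 17 in naive replicate 3, 2 of 2 and 0 of 1 in naive replicate 2, 4 of 4 and 1 of 3 in sham replicate 1, 2 of 3 and 0 of 2 in sham replicate 4, 7 of 7 and 2 of 3 in RIPC replicate 2, and 6 of 7 and 3 of 4 in RIPC replicate 3. The share was higher with Chat in every one of these animals. The adjusted difference of 32.4 ± 9.14 points was above 0 in 6 of 6 animals (limma adjusted p = 0.022; exact sign-flip p = 0.0312, the smallest that 6 animals allow), and 39.7 points without naive replicate 3 (limma adjusted p = 0.13). Gabrq, the theta subunit, was measured in 52 of 68 and 12 of 30 (difference 37.3 ± 10.2 points, above 0 in 4 of 6 animals; limma adjusted p = 0.02). In RIPC replicate 3 it was measured in 3 of 7 neurons with Chat and 3 of 4 without, the reverse of the other animals with a clear difference. The other subunits, Gabrb1, Gabrb2 and Gabre, had differences of 14.5, 28.0 and 23.1 points, with limma adjusted p of 0.35, 0.06 and 0.107, and did not pass.

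Of the 9 serotonin receptors tested, 1 passed, beside 12.9% of all genes tested. Htr2a, a receptor coupled to Gq proteins, which excite neurons, had a Ct in 39 of 68 neurons with Chat (57.4%) and in 5 of 30 without (16.7%). The counts were 26 of 37 and 3 of 17 in naive replicate 3, 3 of 7 and 0 of 3 in RIPC replicate 2, 2 of 7 and 0 of 4 in RIPC replicate 3, 3 of 4 and 2 of 3 in sham replicate 1, 2 of 3 and 0 of 2 in sham replicate 4, and 0 of 2 and 0 of 1 in naive replicate 2. In no animal was it measured in a larger share of the neurons without Chat. The adjusted difference was 39.1 ± 8.88 points (limma adjusted p = 0.005; above 0 in each of the 5 animals in which it was measured), and 31.5 points without naive replicate 3 (limma adjusted p = 0.22). The remaining 8 serotonin receptors all had adjusted differences below 0, beside 65 of all 116 genes tested. In unadjusted counts, 45 of 68 and 19 of 30 neurons had Htr1f, 15 of 68 and 6 of 30 had Htr2c, and 16 of 68 and 5 of 30 had Htr6. These shares were larger with Chat. Htr1a, a Gi-coupled receptor, was measured in 46 of 68 and 26 of 30 neurons (difference -26.8 ± 9.34 points; limma adjusted p = 0.054) and Htr1d in 32 of 68 and 19 of 30 (-23.1 ± 9.60 points; limma adjusted p = 0.107). The median over the list was -11.6 points.

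Among receptors for acetylcholine itself, Chrna7 and Chrm5 passed in opposite directions. Chrna7, the subunit of the fast, calcium-permeable nicotinic receptor, was measured in 59 of 68 neurons with Chat (86.8%) and in 16 of 30 without (53.3%). Its adjusted difference was 28.0 ± 8.77 points (limma adjusted p = 0.035), above 0 in 6 of 6 animals, with counts of 33 of 37 and 10 of 17 in naive replicate 3. The other nicotinic subunits, Chrna4 and Chrnb2, had differences of 3.52 and 7.16 points and did not pass. Chrm5, a Gq-coupled muscarinic receptor, was measured in 44 of 68 and 25 of 30 neurons (-28.5 ± 9.34 points; limma adjusted p = 0.04; lower with Chat in 5 of 6 animals). Before the depth adjustment its share was lower with Chat in 3 animals, higher in 2 and equal in 1. Of the 4 muscarinic receptors tested it was the one that passed, beside 12.9% of all genes tested.

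HCN channels open on hyperpolarization and carry a pacemaker current, and both of those described here and tested passed, measured more often with Chat. Of all genes tested, 8.62% were called in this direction. Hcn3 had a Ct in 55 of 68 and 12 of 30 neurons (32.4 ± 9.68 points; limma adjusted p = 0.027; above 0 in 4 of 6 animals, and in 6 of 6 before the depth adjustment). Hcn4 had a Ct in 48 of 68 and 9 of 30 (30.9 ± 9.17 points; limma adjusted p = 0.027; above 0 in 3 of the 5 animals in which it was measured, and in all 5 before the depth adjustment), and the difference was 17.2 points without naive replicate 3 (limma adjusted p = 0.54). For Hcn4 the counts were 29 of 37 and 5 of 17 in naive replicate 3, but 5 of 7 and 2 of 3 in RIPC replicate 2 and 4 of 7 and 2 of 4 in RIPC replicate 3. Hcn2 was measured in too many neurons for this test (68 of 68 and 26 of 30). Of the 3 sodium and potassium channels tested, 1 passed and all 3 differences were below 0. Of all 116 genes tested, 12.9% passed and 65 had differences below 0. Kcna1, a voltage-gated potassium channel that limits repetitive firing, was measured less often with Chat, in 42 of 68 against 24 of 30 neurons (-28.5 ± 9.08 points; limma adjusted p = 0.037; lower in 5 of 6 animals, and in 4 before the depth adjustment). Its difference was -19.0 points without naive replicate 3 (limma adjusted p = 0.49). Kcnn4 and Scn1a, a potassium and a sodium channel, were at -22.7 and -13.2 points and did not pass (limma adjusted p of 0.107 and 0.40).

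The 4 other genes that passed came from different lists. They were 1 of the 7 receptors tested for oxytocin, orexin, TRH, galanin and related peptides, 1 of the 8 neuropeptides and hormones, 1 of the 6 opioid and somatostatin receptors, and 1 of the 20 genes in no list, beside 12.9% of all genes tested. Hcrtr1, a receptor for orexin, was measured in 32 of 68 neurons with Chat (47.1%) and in 3 of 30 without (10%), with 23 of 37 and 2 of 17 in naive replicate 3. Its adjusted difference was 36.1 ± 9.31 points (limma adjusted p = 0.0125; above 0 in 4 of 6 animals), and 17.5 points without naive replicate 3. Fstl1, a secreted follistatin-like protein, was measured in 45 of 68 and 8 of 30 (31.1 ± 9.33 points; limma adjusted p = 0.027; above 0 in 5 of 6 animals). Its difference was 17.4 points with the median Ct as depth (limma adjusted p = 0.24). Rgs2, a brake on Gq signalling, was measured in 53 of 68 and 13 of 30 (29.3 ± 9.89 points; limma adjusted p = 0.046; above 0 in 4 of 6 animals). Sstr4, a somatostatin receptor, was measured less often with Chat, in 36 of 68 and 21 of 30 (-29.6 ± 9.69 points; limma adjusted p = 0.04; lower in 4 of 6 animals). The gut peptide Cck, which did not pass, was at 11 of 68 and 11 of 30 (-22.6 ± 9.15 points; limma adjusted p = 0.107).

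**Figure D4:**
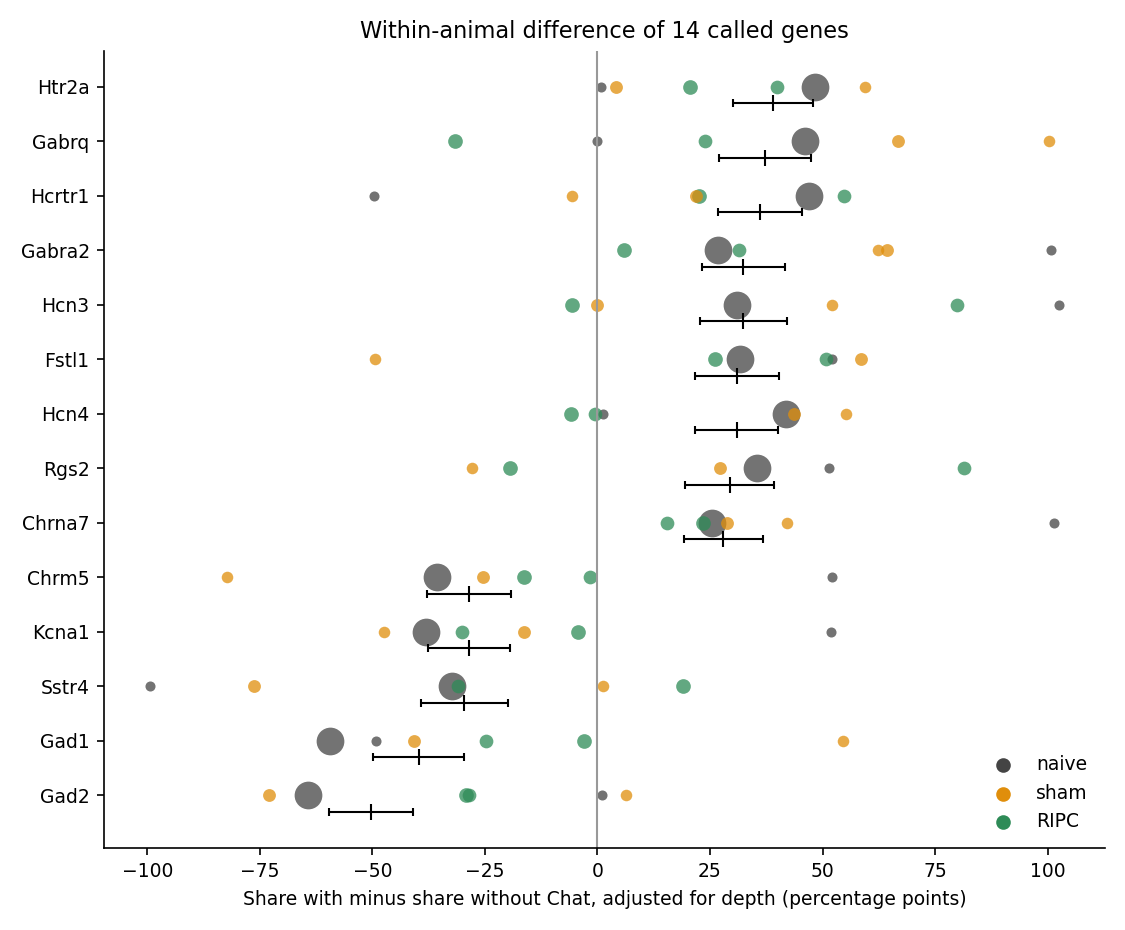
Difference in share (with minus without Chat, adjusted for depth, in percentage points) in each of 6 animals for 14 called genes; the area of a point grows with the animal's weight, and the black bar shows the weighted mean ± SE. Adjusted values can pass 100 because the adjustment is linear; a gene with equal shares in an animal can lie slightly off 0 for the same reason. The points of Gabra2 and Chrna7 all lie above 0. The large naive point (naive replicate 3) lies near the mean for most genes, since it holds 58.6% of the weight of that mean.

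Taken neuron by neuron, the 10 genes called more often with Chat had a median of 8 measured in neurons with Chat (1 to 10) and 3 in neurons without (0 to 7). For the 5 called less often the medians were 2 and 4, and the ranges were both 0 to 5. These counts describe genes chosen on the same neurons. In the 27 neurons with both Chat and Gad1 or Gad2, these 10 genes were measured in 40.7% (Hcrtr1) to 85.2% (Gabra2). Hcn4 was measured in 29 of 41 neurons with Chat and no Gad, in 19 of 27 with Chat and Gad, and in 8 of 24 with Gad and no Chat. The same counts were, for Fstl1, 26 of 41, 19 of 27 and 6 of 24. Sstr4 ran the other way across these groups, in 17 of 41, 19 of 27 and 18 of 24.

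Transcripts for catecholamine synthesis did not pass. Th, tyrosine hydroxylase, was measured in 43 of 68 neurons with Chat (63.2%) and in 12 of 30 without (40%), but adjusted for animal and depth the difference was 14.1 ± 8.89 points (limma adjusted p = 0.33). Dbh, dopamine beta-hydroxylase, was at 14 of 68 and 6 of 30 (-5.30 ± 9.60 points; limma adjusted p = 0.77). Fos, an early-response gene of active neurons, was at 13 of 68 and 1 of 30, with an adjusted difference of 5.75 ± 8.71 points (limma adjusted p = 0.74). Gfap differed by -1.47 ± 9.30 points (limma adjusted p = 0.94). No member passed among the 4 adrenergic, 4 histamine and 2 dopamine receptors tested, the 8 receptors for gut hormones and leptin, the 3 T-type and 2 high-voltage-activated calcium channels, and the 11 activity genes and transcription factors. Of all genes tested, 12.9% passed, and most of these lists were short. Grp, a gastrin-releasing peptide gene measured in too few neurons for the test and singled out after its values were seen, had a Ct in 1 of 68 neurons with Chat and 7 of 30 without.

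The level of a gene was compared separately, among the neurons in which it had a Ct. Level is the median Ct of the 35 most often detected genes in the same neuron minus the Ct of the gene, so that 1 cycle is about a doubling. Of 64 genes with enough neurons in at least 3 animals, limma called 0 (0%) at an adjusted p under 0.05, and 17 had an unadjusted p under 0.05. With each neuron as the unit in place of the animal, 12 were called. The median difference was -0.35 cycles over the 64 genes. The centring genes themselves came up earlier in neurons with Chat, at a median Ct of 14.1 against 15.0, and without centring the median difference was 0.24 cycles.

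The smallest adjusted p, 0.054, was shared by 4 genes. Of the genes whose levels are given here, Camk2a, Cacna1e, Chrm1, Ache, Oxtr, Gabrb1, Agt and Gfap were themselves among the centring genes. Camk2a had levels from -4.86 to 2.37 cycles with a median of 0.62 in 68 neurons with Chat, and from -10.1 to 1.36 with a median of -0.85 in 27 neurons without. The lowest values, from about 10 cycles below the centring genes, were in neurons without Chat. Its adjusted difference was 1.99 ± 0.47 cycles, above 0 in 5 of 5 animals (exact sign-flip p = 0.0625, the smallest possible). Cacna1e, the pore of R-type calcium channels, ran from -3.53 to 2.25 (median 0.31) in 67 neurons and from -10.2 to 1.24 (median -1.11) in 27, with a difference of 2.17 ± 0.50 cycles, also above 0 in 5 of 5 animals.

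The other 2 genes were lower in neurons with Chat, although the ranges overlapped. Chrm1, a Gq-coupled muscarinic receptor, ran from -5.53 to 0 (median -2.33) in 49 neurons with Chat and from -2.39 to 0.78 (median -0.49) in 24 without. The difference was -1.66 ± 0.33 cycles, below 0 in 4 of 4 animals. Hrh2, a Gs-coupled histamine receptor, ran from -3.79 to 1.04 (median -1.42) in 47 neurons and from -1.83 to 1.32 (median 0.13) in 24, with a difference of -1.41 ± 0.27 cycles, below 0 in 4 of 4 animals. Without centring, Camk2a and Cacna1e were at 2.65 and 2.86 cycles and passed (limma adjusted p of 0.029 and 0.0059), whereas Chrm1 and Hrh2 were at -0.998 and -0.609 cycles and did not (0.137 and 0.31). Without RIPC replicate 2, all 4 passed (limma adjusted p of 0.017 to 0.033). None passed without sham replicate 4 (0.074 to 0.078) or without naive replicate 3 (0.054 to 0.27), where Chrm1 was at -2.63 cycles.

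Ache had a median level of -0.42 cycles in 65 neurons with Chat (-3.98 to 1.25) and -1.50 in 24 without (-5.43 to 0.92). The difference was 0.65 ± 0.26 cycles, above 0 in 4 of 4 animals, and did not pass (limma adjusted p = 0.18). Without centring it was 1.46 cycles and passed (limma adjusted p = 0.029). Other genes named by the smallest p were Oxtr, the oxytocin receptor (1.14 ± 0.35 cycles), and Gabrb1 (1.00 ± 0.31 cycles), with positive differences, and IL6r (-1.25 ± 0.36) and Agt, angiotensinogen (-1.06 ± 0.29), with negative ones. All 4 had a limma adjusted p of 0.089 to 0.092. Without naive replicate 3, Oxtr was at 0.75, Gabrb1 at 0.42 and Agt at -0.36 cycles. Without centring, Agt was at -0.23, IL6r at -0.71, Oxtr at 1.76 and Gabrb1 at 1.92 cycles, and the last 2 then passed (limma adjusted p of 0.029 and 0.019). Gad2, Th and Gfap, where measured, had level differences of -0.997, 0.27 and -1.11 cycles and did not pass.

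**Figure D5:**
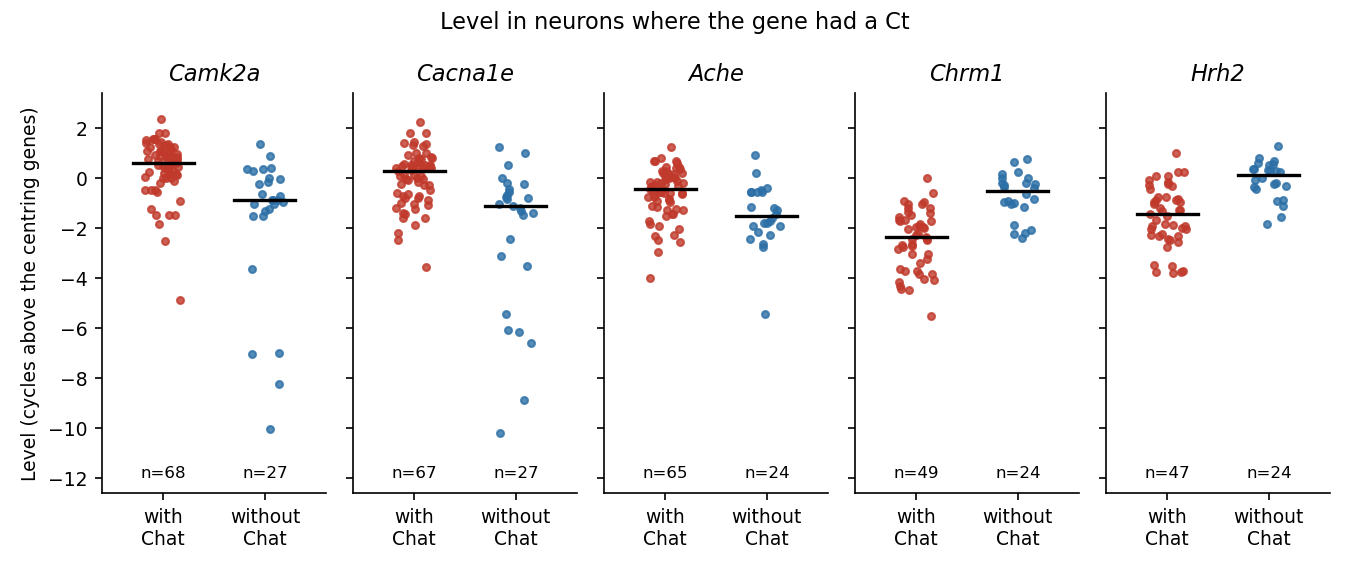
Level (negative Ct relative to the 35 centring genes, in cycles) of 5 genes in each neuron in which the gene had a Ct, with Chat (red) and without (blue); black bars are medians and n is the number of neurons. Camk2a and Cacna1e have long lower tails in neurons without Chat, while Chrm1 and Hrh2 lie lower in neurons with Chat (medians -2.33 against -0.49, and -1.42 against 0.13).

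Among neurons with Chat, the level of Chat itself ran from -8.66 to 2.38 cycles. As a description across neurons of all animals, which share the centring genes, Chat level rose with that of Fstl1 (Spearman's rho 0.53, Pearson's r 0.56, 45 neurons), Cacna1e (rho 0.51, r 0.52, 67 neurons) and Chrna7 (rho 0.47, r 0.71, 59 neurons). With the 2 neurons farthest from the median Chat level left out, r was 0.40, 0.55 and 0.55. Ache and Camk2a followed with rho of 0.40 each. The lowest rho were those of IL6r (-0.59), Htr1b (-0.52) and Htr1a (-0.50). Over the 83 genes with a Ct in at least 30 such neurons the median rho was -0.13, and Chat level had a rho of 0.09 with the number of other detected assays.

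The share of neurons with Chat by treatment is given as a description, since with so few animals its exact tests could not reach a p of 0.05. It was 66.7% and 68.5% in the naive animals, 57.1%, 100% and 60% in sham replicates 1, 2 and 4, and 100%, 70% and 63.6% in the RIPC animals, so the groups overlapped. Animals needed at least 2 kept neurons to enter, which left out sham replicate 3, whose 1 neuron had Chat. In naive replicate 3, 37 of 54 neurons gave a Wilson 95% interval of 55.3% to 79.3%. The means were 67.6% ± 1.31 (SD, n = 2), 72.4% ± 24.0 (SD, n = 3) and 77.9% ± 19.4 (SD, n = 3). With pools of neurons included, the differences between these means turned to -4.86 points for sham minus naive, -16.1 for RIPC minus naive and -11.2 for RIPC minus sham. Exact permutation tests over animals on the single neurons, two-sided, gave p = 1 for sham against naive, p = 0.8 for RIPC against naive and p = 0.6 for RIPC against sham, in a design where the smallest possible p was 0.1. The gene differences between neurons with and without Chat were not called as depending on treatment for any of the 116 genes (limma moderated F test, 0%, 9 genes at an unadjusted p under 0.05, smallest adjusted p = 0.37).

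By side, neurons with Chat made up 34 of 52 on the left and 34 of 46 on the right. Naive replicate 3 had 14 of 27 on the left and 23 of 27 on the right, and sham replicate 1 had 4 of 4 and 0 of 3, the opposite order. The mean difference over 8 animals, left minus right, was 22.7 points, positive in 4 of them (exact sign-flip test, two-sided, p = 0.34). Since 13 of the 17 neurons without Chat in naive replicate 3 were from the left, side was also added to the fit of shares, and 16 genes were then called, including all 15.

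Pools of several neurons, which were not used to choose the neurons, gave a further comparison on other cells of 5 animals. In a pool without a Chat Ct, Chat was below detection in all of its cells together, and 16 of the 88 pools with at least 42 assays were of this kind, against 72 with Chat. Of 118 genes tested with the same fit and the number of cells as a further covariate, 2 were called (1.69%). Chrna7 had a Ct in 66 of 72 pools with Chat and in 3 of 16 without (51.7 ± 12.4 points, above 0 in 5 of 5 animals; limma adjusted p = 0.046). Htr2c, a serotonin receptor named here because it was the other call, was at 25 of 72 and 7 of 16 (-56.6 ± 14.2 points; limma adjusted p = 0.046), whereas in single neurons its difference was -9.50 points. Without the depth adjustment, 30 genes were called in pools, all more often with Chat. With animals weighted equally, 0 were called, and the same held without naive replicate 2 and without RIPC replicate 1. It was 1 without sham replicate 3 and 15 without sham replicate 4. RIPC replicate 1 and sham replicate 2 gave 6 each of the 16 pools without Chat. Of the 15 genes called in single neurons, 14 could be tested in pools and 11 of these had an adjusted difference of the same sign. The exceptions were Gad2 (20.8 ± 13.5 points), Htr2a (-12.4 ± 15.6) and Hcrtr1 (-32.6 ± 14.5), none of which passed. Some of these signs came from the adjustment. In unadjusted counts, Htr2a (50 of 72 and 4 of 16) and Hcrtr1 (40 of 72 and 5 of 16) were measured more often with Chat. So were Gad1 (30 of 72 and 3 of 16) and Chrm5 (65 of 72 and 14 of 16), whose adjusted differences were below 0. Pools without Chat had fewer assays measured in each of the 5 animals, for example a median of 52 against 104.5 in sham replicate 4.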

How the data were processed

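The deposited Ct values were those the authors read out on a microfluidic RT-qPCR chip after preamplification, without normalization, and were empty below detection. Its 218 columns were 213 samples, since 5 had been run again. Runs were averaged, and a gene counted as measured if either run had a value. The 3 genes with duplicate assays were averaged. No columns held identical values, and which chip held a sample was not given in the sources used. The groups of neurons and the gene lists were chosen with earlier results of these data known.

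For shares, measurement (yes or no) was regressed on Chat, the number of other assays with a Ct, and animal, and 1 adjusted difference was taken per animal. Levels needed at least 2 neurons with a Ct in each group per animal and 3 animals. Differences were weighted by n1 n2/(n1 + n2) and tested against 0 by two-sided limma tests (version 3.58.1, R version 4.3.3) with Benjamini-Hochberg adjustment over all genes tested. Exact tests flipped the signs of the animals' differences or permuted animals. Named genes were all called genes, the 8 with the smallest p in each direction by share and 4 by level, and Ache, Gad1, Gad2, Th, Dbh, Camk2a, Fos and Gfap by role. The fits were run on simulated data in which each gene was drawn independently, so the rate of false calls in these neurons was not measured. Depth per neuron is the number of assays with a Ct, 44 to 149 (median 69) in the kept neurons. Alternatives covered depth, weights, limits, runs, centring, units, and animals and 1 neuron with a doubtful title left out. Results of 2 genes are not reported here, and they were left out of the list counts but not of the fits.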

Additional observations from a re-analysis of the deposited data

Results flagged for a closer look

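Among 32 sets of differences between neurons with and without Chat, each with 1 value per animal, 3 held an animal that stood far from the others. The limit used (Dixon's 95% critical value) is set so that chance passes it in about 1 in 20 sets, a rate that was not measured here. For Fstl1 the adjusted difference in share was -49.3 points in sham replicate 4, where the next lowest was 26.2, from 2 of 3 neurons with Chat and 2 of 2 without. For Chrna7 it was 101.4 points in naive replicate 2, where the next highest was 42.1, from 2 of 2 neurons and 0 of 1. For Camk2a the difference in level was 4.94 cycles in RIPC replicate 2, where the next highest was 1.77. Each of these values rested on few neurons, and the cause was not tested.

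The 17 single neurons that fell below the limit of 42 assays entered no comparison, and Chat had a Ct in 6 of them. These neurons had 13 to 41 assays with a Ct. Ache was measured in 8 of them, Camk2a in 14, and Gad1 or Gad2 in 4.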

How the results depend on the processing

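The number of genes called by share (15) depended most on how animals and depth were handled. It was 2 with the median Ct of the centring genes as depth, 0 with animals weighted equally and 0 in naive animals only (2 animals, Gad2 at -60.7 points with an adjusted p of 0.278), 6 with at least 3 neurons of each kind per animal, 4 in sham and RIPC animals only, 27 without the latest 20% of Chat Ct and 3 under a wider gene filter (147 genes). Leaving out 1 animal gave 5 (without naive replicate 3) to 19. Without depth it was 21, of which 12 were among the 15. With neurons as units it was 19, and 20 with no replicate block, each including all 15; for level these fits called 12 and 12. In alternatives chosen after seeing the data, neurons of naive replicate 3 alone gave 9 by share and 14 by level, and those of the other animals 4 and 4. The 15 genes kept their sign in every alternative run, except that Gabra2 could not be tested in naive replicate 3 alone.

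By level (0 called) the count was 2 without depth, 9 with at least 3 neurons, 3 with first runs only, 9 without the latest 20% of Chat Ct, 1 in sham and RIPC animals, 4 with side as a covariate, 5 when centred on all detected genes, 7 without centring (all higher with Chat) and 7 with undetected values set below the lowest; leaving out animals gave 0 to 6. In pools (2) it was 30 without depth, 0 with equal weights and 0 to 15 with animals left out. The treatment count stayed at 0.

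With animals left out the depth difference was 8.75 to 10.48 assays. The Chat share differed by -9.02 to 12.41 points for sham minus naive (-4.86 with pools), -0.77 to 17.41 for RIPC minus naive (-16.1 with pools), -5.56 to 19.3 for RIPC minus sham (-11.2 with pools), and 11.6 to 30.7 for left minus right (-18.75 at 84 assays). Uncalled genes that changed sign were Dbh by share (1.20 points without depth, 7.46 in sham and RIPC animals), Gfap by share (4.83 without depth, 2.37 with equal weights, -7.14 to 14.55 with animals left out, 14.55 with neurons as units and naive replicate 3 left out), and by level Gad2 (0.28 cycles with the centring genes as depth), Th (-0.20 with equal weights) and Gfap (0.30 with neurons as units and naive replicate 3 left out). The cause was not tested. At 84 assays, 1 animal held both kinds of neuron, so the gene tests, the depth test and the treatment test were not run there, nor was the test in pools, nor levels in naive animals only. A missing Ct in 1 neuron is limited by depth, which was lower without Chat.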
